A study of Mus musculus with 4 samples.

Results

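Neutrophil granule and maturation genes were followed in spleens of mice with B cell leukaemia. The set was 32 named genes, chosen by symbol: proteins of the primary, secondary and tertiary granules, cytosolic and oxidase proteins, 2 transcription factors, and surface receptors and products of late maturation. A gene was measured where a probe set of the array carried it as its single symbol, which held for 29 of the 32, out of 19297 genes in all. Fpr1, Fpr2 and Ly6g were not analysed here. Whole-spleen RNA came from 2 leukaemic mice and 2 wild type mice of the 129Sv strain, with 1 array per mouse. Leukaemic mice carried cre at both Ren1d alleles (Ren1dcre/cre), so that cre stands at a renin locus, together with floxed RBP-J (flox/flox). Wild type mice carried the same floxed RBP-J with unmodified Ren1d (Ren1d+/+), so the floxed alleles are common to all 4. Leukaemic replicate 1 was a female of 107 days with a spleen of 0.7 g, and leukaemic replicate 2 a male of 93 days with a spleen of 0.47 g. Wild type replicates 1 and 2 were females of 80 and 81 days with spleens of 0.12 g and 0.16 g. Every leukaemic mouse was older, had a heavier spleen and carried cre, so the parts of these factors and of the leukaemia cannot be told apart.

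Neutrophils are made in steps, and each step leaves its own proteins behind. Promyelocytes fill the primary (azurophil) granules with peroxidase and serine proteases, myelocytes and metamyelocytes the secondary (specific) granules, and band cells the tertiary (gelatinase) granules. Chemokine and cytokine receptors appear as the cell becomes ready to leave the marrow, and in mice the red pulp of the spleen also holds neutrophils and makes granulocytes. In RNA from whole spleen, a smaller share of cells of a type and less RNA per cell cannot be told apart. Array values are relative to the RNA of the spleen. The leukaemic spleens were heavier, so lower values do not give the number of such cells per spleen.

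The unit throughout is the log2 expression value the authors deposited, and differences are leukaemic minus wild type. The comparison asks how the spleen with leukaemia differs from one without it. Limma's moderated test was fitted to all 19297 genes, and a gene was called at a Benjamini-Hochberg adjusted p under 0.05. The brightest genes of the spleen list, the B cell receptor genes Cd79a and Cd79b, lay between 12.28 and 12.91 on all arrays. As B cell genes they do not by themselves show spleen tissue in a spleen with B cell leukaemia. Of 9 measured spleen genes 8 had a negative difference and 1 fell, Cr2, the complement receptor CD21 (-1.86, SE 0.24). The median of the 9 was -0.76. Among all genes 56.1% had a negative difference and 1.03% were called lower. Wild type replicate 2 also carried exocrine pancreas transcripts, with the colipase gene Clps at 13.01 there and between 7.85 and 8.08 on the other 3 arrays. The summed linear level of the 9 measured pancreas genes was 1116 and 1133 in leukaemic replicates 1 and 2, against 1075 and 41071 in wild type replicates 1 and 2. Cela1, a pancreatic elastase, read 7.67 and 7.77 in leukaemic spleens, against 7.79 and 11.22 in wild type spleens. None of these 9 was called, and 0 had an unadjusted p under 0.05 in limma. For the neutrophil genes the size of the gap between the wild type arrays had a median of 0.12 and reached 0.51 in Olfm4, with a median of 0.20 over all genes.

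Transcripts of neutrophil granules and receptors were lower in leukaemic spleen across nearly the whole set. Of the 29 measured genes 28 had a negative difference, against 56.1% of all genes. Both leukaemic arrays lay below both wild type arrays for 26 of the 29, against 26.2% of all genes. The median difference over the 29 genes was -0.98, against -0.03 over all genes, and it was -0.62 without leukaemic replicate 1. Limma called 4 of the 29 lower, namely Csf3r, Camp, Mpo and Olfm4, and 0 higher. Among all genes 1.03% were called lower and 1.43% higher. At an unadjusted p under 0.05, 22 of the 29 were lower and 1, Gfi1, was higher, against 10.6% and 10.0% of all genes.

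**Figure D1:**
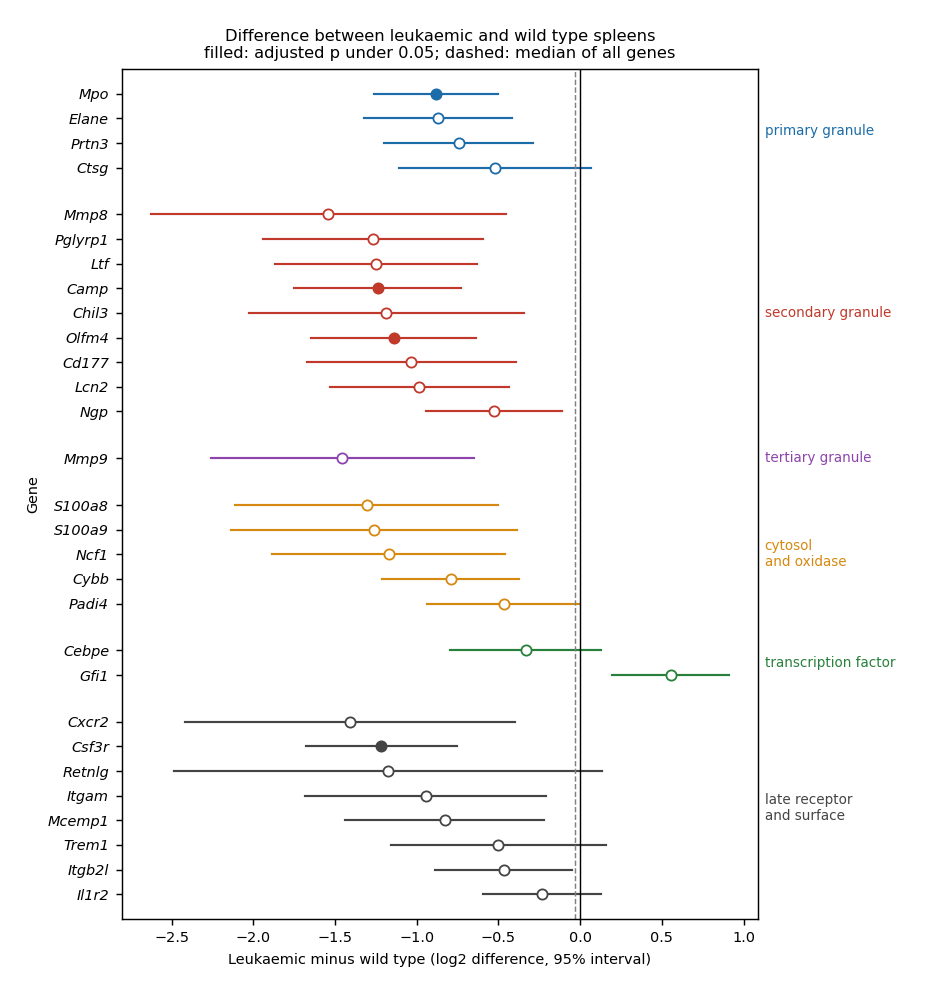
Log2 difference between leukaemic and wild type spleens for the 29 measured neutrophil genes (horizontal axis), with the 95% interval of limma's moderated fit, grouped by class and ordered by size within a class (2 mice per group). Filled points are the 4 called genes Mpo, Camp, Olfm4 and Csf3r. All points but that of Gfi1 (0.55) lie left of 0, and the dashed line marks the median of all genes (-0.03).

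The 4 called genes were a growth factor receptor, 2 secondary granule genes and 1 primary granule gene. Csf3r encodes the receptor of granulocyte colony-stimulating factor, the main growth factor of the lineage. It read 8.27 and 8.78 in leukaemic replicates 1 and 2, against 9.79 and 9.70 in wild type replicates 1 and 2, and fell by 1.22 (SE 0.19, 2.32-fold, limma adjusted p = 0.034). Camp, the cathelicidin antimicrobial peptide of secondary granules, read 9.20 and 9.77 in leukaemic spleens, against 10.84 and 10.60 in wild type spleens. Its log2 difference was -1.24 (SE 0.21, 2.36-fold lower, limma adjusted p = 0.041). In neither gene did the groups overlap, and leukaemic replicate 1 was the lowest array in both.

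Mpo, the myeloperoxidase of primary granules, read 10.15 and 10.47 in leukaemic spleens, against 11.17 and 11.20 in wild type spleens. It fell by 0.88 (SE 0.16, 1.84-fold, limma adjusted p = 0.045). Olfm4, a matrix glycoprotein found in the secondary granules of a subset of neutrophils, read 7.65 and 7.98 in leukaemic spleens, against 9.21 and 8.70 in wild type spleens, and fell by 1.14 (SE 0.21, limma adjusted p = 0.048). The wild type mice lay farther apart for Olfm4, by 0.51, than for any other gene of the set, and the groups still did not overlap. The 4 calls lay close to the threshold. Fits with a mouse left out keep 1 mouse in a group and estimate another prior, so their counts cannot be set directly beside the 4 calls. Without a leukaemic mouse the degrees of freedom of that prior are unbounded. Every gene then gets the same variance, and calls follow the size of the difference alone. Without leukaemic replicate 1 only Olfm4 was called among the 29 (limma adjusted p = 0.046), and without leukaemic replicate 2 there were 23 calls, all lower. In those fits 1.08% and 3.07% of all genes were called lower. Without wild type replicate 1 or wild type replicate 2 the count was 0 (with 0.135% and 0.00% of all genes called lower), with 14 and 10 of the 29 lower at an unadjusted p under 0.05 in limma, against 12.0% and 9.39% of all genes. Quantile normalization and a minimum log2 difference of 0.5 also ended all 4 calls in limma (0.461% and 0.0363% of all genes were called lower), with 21 and 16 of the 29 lower at an unadjusted p under 0.05, against 10.8% and 1.94% of all genes. Median centring kept Camp and Csf3r, and adding all probe sets to the fit kept Csf3r, with 0.803% and 0.627% of all genes called lower.

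The 250 bases before the gene's start are shown for 3 secondary granule genes (Ngp, Ltf and Mmp8) and 3 primary granule genes (Mpo, Elane and Prtn3), as examples of windows that hold 1 or both of the strings TTGCNNAA and GAGGAA. The first is of the kind C/EBP factors bind, and the other is the core of the letters PU.1 binds. Capitals mark every match of either string on either strand, so that GAGGAA on the opposite strand appears as TTCCTC. Ltf and Mmp8 hold both strings, Ngp the first only, and the primary granule genes the other only. Sequences are those of RefSeq's promoter table (GRCm38.p6), read 5′ to 3′ on the strand of the gene, which is plus for all 6.
Ngp, chr9:110419558-110419807: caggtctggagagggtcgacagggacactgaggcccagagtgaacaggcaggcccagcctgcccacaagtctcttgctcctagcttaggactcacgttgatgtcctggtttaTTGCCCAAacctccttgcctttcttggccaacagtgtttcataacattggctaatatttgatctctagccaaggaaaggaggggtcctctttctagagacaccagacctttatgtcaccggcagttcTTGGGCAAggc
Ltf, chr9:111019042-111019291: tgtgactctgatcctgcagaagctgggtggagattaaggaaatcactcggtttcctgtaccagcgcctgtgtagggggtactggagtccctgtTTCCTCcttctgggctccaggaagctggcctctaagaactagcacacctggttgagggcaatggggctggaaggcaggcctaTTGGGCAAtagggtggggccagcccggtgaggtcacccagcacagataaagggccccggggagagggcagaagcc
Mmp8, chr9:7558179-7558428: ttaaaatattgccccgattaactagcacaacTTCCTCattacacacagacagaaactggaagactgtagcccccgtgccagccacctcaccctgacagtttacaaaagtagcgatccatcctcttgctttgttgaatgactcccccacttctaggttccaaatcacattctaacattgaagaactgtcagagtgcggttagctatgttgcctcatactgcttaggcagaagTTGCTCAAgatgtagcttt
Mpo, chr11:87793534-87793783: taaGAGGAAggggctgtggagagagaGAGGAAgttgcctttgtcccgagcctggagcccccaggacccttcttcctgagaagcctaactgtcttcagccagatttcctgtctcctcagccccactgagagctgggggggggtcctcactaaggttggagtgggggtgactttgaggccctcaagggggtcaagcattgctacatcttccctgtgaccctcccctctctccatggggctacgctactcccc
Elane, chr10:79886062-79886311: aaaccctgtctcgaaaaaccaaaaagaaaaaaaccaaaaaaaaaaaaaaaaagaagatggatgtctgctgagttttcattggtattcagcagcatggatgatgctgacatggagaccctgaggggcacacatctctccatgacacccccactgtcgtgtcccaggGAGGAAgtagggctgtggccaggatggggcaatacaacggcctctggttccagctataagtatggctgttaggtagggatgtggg
Prtn3, chr10:79879417-79879666: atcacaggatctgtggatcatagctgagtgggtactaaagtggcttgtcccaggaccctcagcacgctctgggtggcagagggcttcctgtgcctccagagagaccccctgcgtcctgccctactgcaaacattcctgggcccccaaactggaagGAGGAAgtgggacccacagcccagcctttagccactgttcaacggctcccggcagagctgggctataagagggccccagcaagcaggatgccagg

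The promoter table held 28 windows of 27 measured genes of the set. Of these, 19 ended at the outer start of the gene in RefSeq's gene table, as all 6 shown do, and 9 at a start inside it, that of Csf3r among them. Both strands of each window were searched, and strings may overlap. TTGCNNAA stood in 4 of 9 secondary granule windows (Mmp8, Ltf, Lcn2 and Ngp) and in 0 of 4 primary granule windows, against 9.56% of all 32851 windows of the same length. Over the set it was in 25.0% of windows, the other 3 being those of S100a9, Retnlg and Gfi1. GAGGAA stood in all 4 primary granule windows (Mpo, Elane, Prtn3 and Ctsg) and in 6 of 9 secondary ones (not in Camp, Chil3 and Ngp), and in 57.1% of windows of the set against 23.3% of all windows. These were 2 of 6 strings counted, picked for display after the counts were seen, and differences between classes were not tested. The looser TTNNGNAA, which includes the reverse of TTGCNNAA, was in 14 of the 28 windows of the set and 36.8% of all windows. TTGCGNAA was in 0 of 28 windows and in 0.670% of all windows. GAGGAAG, which contains GAGGAA, was in 42.9% and 10.6%, and CAACTG, letters of the kind Myb binds, in 14.3% and 11.1%. A match is a description of letters, and no binding was measured.

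All 4 primary granule genes were lower in both leukaemic arrays than in either wild type array, against 26.2% of all genes. Their median difference was -0.81 (-0.56 without leukaemic replicate 1). Mpo was the called one, with 1.03% of all genes called lower. Elane, neutrophil elastase, read 10.26 and 10.75 in leukaemic spleens, against 11.43 and 11.32 in wild type spleens, a difference of -0.87 (SE 0.19, limma adjusted p = 0.065). Prtn3, proteinase 3, is the protein-coding neighbour of Elane on chromosome 10 in GRCm38.p6 and differed by -0.74 (SE 0.19, limma adjusted p = 0.090). Ctsg, cathepsin G, had the smallest difference of the class, -0.52 (SE 0.25, limma adjusted p = 0.30). Its values were 9.06 and 9.82 in leukaemic spleens, against 9.91 and 10.01 in wild type spleens, so that leukaemic replicate 2 was at -0.14 relative to the wild type mean.

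Secondary granule genes had a median difference of -1.19 (-0.73 without leukaemic replicate 1). Both leukaemic arrays lay below both wild type arrays for all 9, against 26.2% of all genes. Camp and Olfm4 fell, and the other 7 did not pass the test, with 1.03% of all genes called lower. Mmp8, the neutrophil collagenase, had the largest fitted difference of the 29 genes, with leukaemic replicate 1 in the range of signal not shown to lie above background (under 8.08). It read 7.58 and 9.19 in leukaemic spleens, against 9.95 and 9.90 in wild type spleens, a difference of -1.54 (SE 0.46, limma adjusted p = 0.13). The leukaemic mice lay 1.62 apart and the wild type mice 0.05.

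Pglyrp1, a peptidoglycan-binding protein that kills bacteria, read 9.08 and 10.00 in leukaemic spleens, against 10.77 and 10.85 in wild type spleens (difference -1.27, SE 0.28, limma adjusted p = 0.067). Ltf, the iron-binding lactoferrin, read 9.90 and 10.72 in leukaemic spleens, against 11.52 and 11.60 in wild type spleens (difference -1.25, SE 0.26, limma adjusted p = 0.060). Both had the wild type arrays within 0.08 of each other and leukaemic replicate 1 lowest.

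Chil3, a chitinase-like protein that macrophages also make, differed by -1.19 (SE 0.35), and Cd177, a surface and granule glycoprotein, by -1.03 (SE 0.27). Lcn2, the siderophore-binding lipocalin, differed by -0.98 (SE 0.23). Adjusted p for these 3 lay between 0.074 and 0.13 in limma. Ngp, a cathelicidin-related neutrophil granule protein, was the least shifted of the class. It read 11.95 and 12.36 in leukaemic spleens, against 12.67 and 12.69 in wild type spleens (difference -0.53, SE 0.18, limma adjusted p = 0.15).

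Mmp9, gelatinase B, stood for the tertiary granules. It read 8.31 and 9.41 in leukaemic spleens, against 10.14 and 10.48 in wild type spleens, a difference of -1.46 (SE 0.34, limma adjusted p = 0.073). Class medians thus were -0.81 for primary and -1.19 for secondary granules, beside -1.46 for Mmp9, the only tertiary granule gene of the set. Without leukaemic replicate 1 these values were -0.56, -0.73 and -0.91. A series by granule stage would rest on that single gene at its end. The receptor and late genes did not extend it, with a median of -0.89 (-0.42 without leukaemic replicate 1). Differences between classes were not tested, and the intervals of their members overlap in the plot of differences.

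Cytosolic and oxidase genes had a median of -1.17 (-0.63 without leukaemic replicate 1), with 0 of 5 called. Both leukaemic arrays lay below both wild type arrays for all 5, against 26.2% of all genes. At an unadjusted p under 0.05 in limma 4 of 5 were lower, against 10.6% of all genes. S100a8 and S100a9 encode the subunits of calprotectin, the abundant calcium- and zinc-binding protein of neutrophil cytosol, and are neighbouring protein-coding genes on chromosome 3. S100a8 read 9.45 and 10.60 in leukaemic spleens, against 11.31 and 11.36 in wild type spleens (difference -1.31, SE 0.34, limma adjusted p = 0.091). S100a9 read 9.66 and 10.92 in leukaemic spleens, against 11.49 and 11.61 in wild type spleens (difference -1.26, SE 0.37, limma adjusted p = 0.12). The pair ran in parallel over the 4 arrays, with a gap between the leukaemic mice of 1.15 and 1.26.

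Ncf1, the p47phox subunit that assembles the NADPH oxidase, differed by -1.17 (SE 0.30), and Cybb, the catalytic gp91phox subunit that other phagocytes also express, by -0.79 (SE 0.18). Their limma adjusted p values were 0.088 and 0.066. Padi4, which citrullinates histones during release of extracellular traps, read 7.07 and 7.32 in leukaemic spleens, against 7.42 and 7.90 in wild type spleens. Its difference of -0.47 (SE 0.20, limma adjusted p = 0.24) was close to the gap of 0.47 between the wild type mice.

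Of the 2 transcription factors 0 were called. Gfi1, a zinc finger repressor needed for granulocyte development and also active in lymphoid precursors, was the 1 gene of the 29 with a positive difference. It read 8.91 and 8.67 in leukaemic spleens, against 8.18 and 8.29 in wild type spleens, a difference of 0.55 (SE 0.15, limma adjusted p = 0.10). The groups did not overlap, and leukaemic replicate 1, lowest for the other 28 genes, was highest for this one. Cebpe, the C/EBP factor that drives secondary granule genes, read 8.31 and 8.78 in leukaemic spleens, against 8.76 and 8.99 in wild type spleens. Its groups overlapped, and the difference was -0.33 (SE 0.19, 95% interval -0.79 to 0.13, limma adjusted p = 0.41).

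Of 8 measured receptor and late genes, 1 fell (Csf3r) and 7 did not pass, with a median difference of -0.89 (-0.42 without leukaemic replicate 1). Among all genes 1.03% were called lower. Both leukaemic arrays lay below both wild type arrays for 7 of the 8, against 26.2% of all genes. At an unadjusted p under 0.05 in limma 5 of the 8 were lower, against 10.6% of all genes. Cxcr2, the chemokine receptor that draws mature neutrophils out of the marrow, read 7.79 and 9.26 in leukaemic spleens, against 10.05 and 9.81 in wild type spleens. Its difference was -1.41 (SE 0.42, limma adjusted p = 0.13). Retnlg, a resistin-like secreted protein of mature mouse neutrophils, read 9.13 and 11.11 in leukaemic spleens, against 11.29 in each wild type spleen. Its difference of -1.18 (SE 0.55, limma adjusted p = 0.30) came almost wholly from leukaemic replicate 1, and it was -0.19 without that mouse.

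Itgam, the CD11b integrin chain shared with monocytes and macrophages, differed by -0.94 (SE 0.31), and Mcemp1, a membrane protein of myeloid cells, by -0.83 (SE 0.26). Trem1, an activating receptor of myeloid cells, read 6.32 and 7.19 in leukaemic spleens, against 7.15 and 7.36 in wild type spleens, so that the groups overlapped (difference -0.50, SE 0.28). Itgb2l, a beta 2 integrin-like chain, differed by -0.47 (SE 0.18), and Il1r2, the decoy receptor of interleukin 1, by -0.23 (SE 0.15). Adjusted p for these 5 lay between 0.14 and 0.48 in limma.

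Signal limits the reading of the dimmest of these genes. The 9 pancreas genes lay between 5.16 and 8.08 on the 3 arrays without pancreas signal. Padi4, Trem1, Itgb2l and Il1r2 had both group means under 8.08, and Olfm4 and Mcemp1 their leukaemic mean. Leukaemic replicate 1 alone was under it for Mmp8 (7.58), Cxcr2 (7.79) and Itgam (8.06). Such values are not shown to lie above background, so differences of those 9 genes, Mmp8 and the called Olfm4 among them, are not exact folds.

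**Figure D2:**
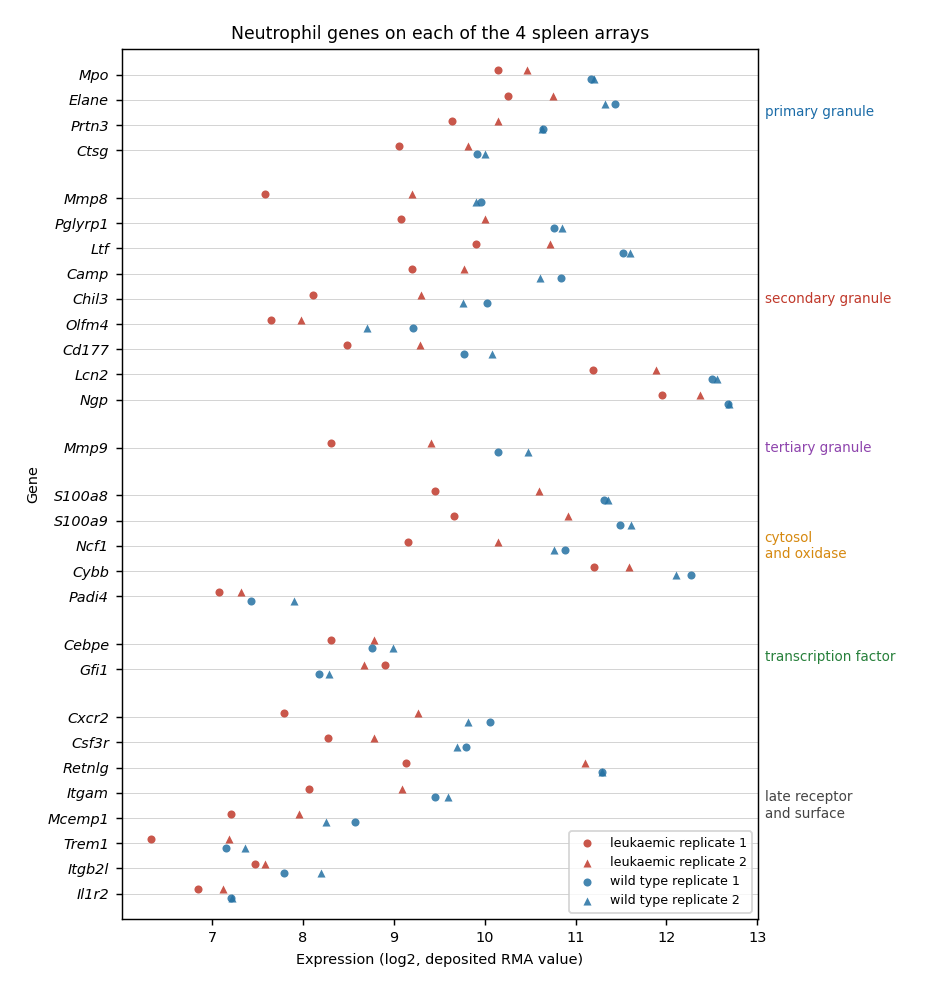
Deposited log2 expression (horizontal axis) of the 29 measured neutrophil genes on each array, with leukaemic arrays in red above wild type arrays in blue within each row. Red circles (leukaemic replicate 1) lie left of red triangles (leukaemic replicate 2) in all rows but Gfi1, and the blue symbols of a row lie at most 0.51 apart.

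The leukaemic mice differed from each other more than the wild type mice did. Leukaemic replicate 1 was below leukaemic replicate 2 for 28 of the 29 genes. Among all genes leukaemic replicate 2 was the higher of these arrays in 44.3%. The size of the gap had a median of 0.75 between leukaemic mice and 0.12 between wild type mice, and over all genes 0.12 and 0.20. The gap was larger in the leukaemic pair for 26 of the 29 genes, against 38.4% of all genes. Relative to the wild type mean, the set had a median of -1.33 in leukaemic replicate 1, and of -0.62 in the other leukaemic mouse. With 1 mouse each, this gap has no test, and the mice also differed in sex, age and spleen weight.

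By class, the median gap between the leukaemic mice (replicate 2 minus replicate 1) was 0.50 for primary, 0.81 for secondary, 0.98 for cytosolic and oxidase, and 0.81 for receptor and late genes, and it was 1.10 for Mmp9. Retnlg showed the largest, 1.98, with differences from the wild type mean of -2.17 in leukaemic replicate 1 and -0.19 in leukaemic replicate 2. Mmp8 was at -2.35 and -0.73, and Cxcr2 at -2.14 and -0.67. Close values in both mice were seen for Olfm4 (-1.31 and -0.98), Mpo (-1.04 and -0.72) and Itgb2l (-0.52 and -0.41). The same held for Padi4 (-0.59 and -0.34), Il1r2 (-0.37 and -0.10) and Gfi1 (0.67 and 0.43). Olfm4, Itgb2l, Padi4 and Il1r2 were under 8.08 on both leukaemic arrays, where signal is not shown to lie above background. Mpo and Gfi1 were not. In leukaemic replicate 2, the less shifted mouse, the 4 called genes lay between -0.72 and -0.98 from the wild type mean.

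**Figure D3:**
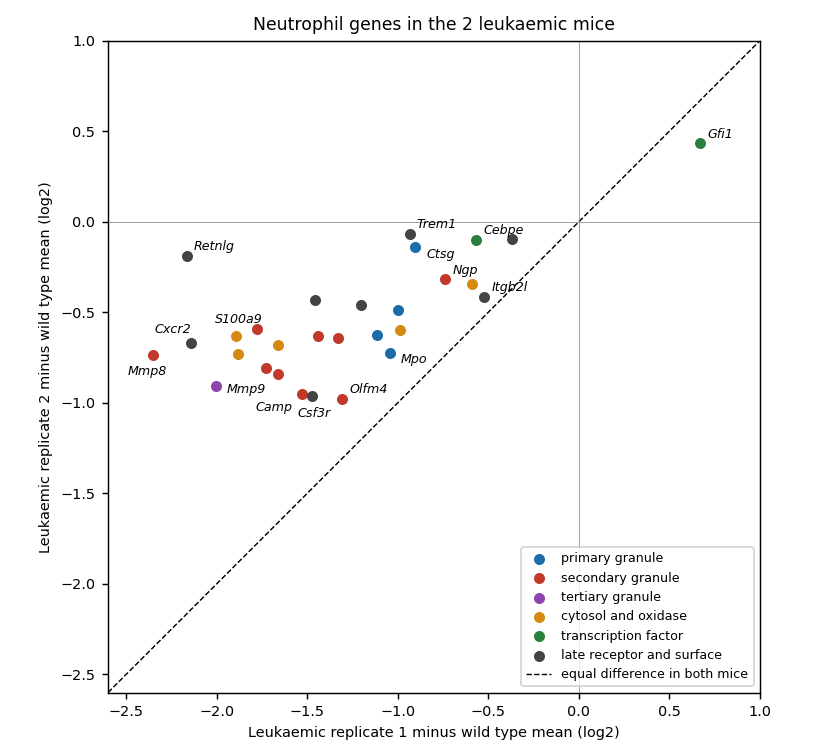
Difference from the wild type mean (log2) of the 29 measured neutrophil genes in leukaemic replicate 1 (horizontal axis) and leukaemic replicate 2 (vertical axis), coloured by class. All points but Gfi1 lie above the dashed line of equal difference, Retnlg (-2.17 and -0.19) farthest from it.

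Other genes of the neutrophil programme, from lists that did not overlap the set, had smaller median differences. These lists also hold dim genes, such as Stfa2 and Stfa3 of the granule list (4-array means 4.48 and 4.86), while others such as Lyz2 (12.56) were bright. Values under 8.08 are not shown to lie above background, so these medians cannot be set directly beside those of the set. Of 18 measured genes of other granules and secretory vesicles 16 were lower and 0 were called, with a median of -0.39. The largest differences were those of Cst7, the protease inhibitor cystatin F (-0.91, SE 0.20, limma adjusted p = 0.065), and Fcnb, ficolin B (-0.90, SE 0.18, limma adjusted p = 0.054). Fcnb read 8.53 and 8.96 in leukaemic spleens, against 9.63 and 9.66 in wild type spleens. Of 5 other NADPH oxidase genes 0 were called and 4 were lower, with a median of -0.25. Cyba and Ncf4, which encode p22phox and p40phox, each differed by -0.69 (limma adjusted p = 0.066 and 0.077). At an unadjusted p under 0.05 in limma 7 of the 18 and 2 of the 5 were lower, against 10.6% of all genes.

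Of 17 genes of the cytokines, chemokines and receptors of granulopoiesis 0 were called, with a median of -0.17. At an unadjusted p under 0.05 in limma 5 were lower, against 10.6% of all genes. The median is the value of Csf2, which had a 4-array mean of 5.40. Cxcl2 (5.11) and Csf3 (6.28) were dim as well, and Cxcr4 (11.05) was bright. Cxcl12, the stromal chemokine that retains neutrophils through Cxcr4, read 9.03 and 9.56 in leukaemic spleens, against 10.74 and 10.14 in wild type spleens (difference -1.15, SE 0.25, limma adjusted p = 0.066). C5ar1, the receptor of complement C5a, differed by -0.68 (SE 0.17, limma adjusted p = 0.084). Among 11 other transcription factors of granulopoiesis 1 rose and 0 fell, with 1.43% of all genes called higher and 1.03% lower. Of the 11, 7 had a negative difference, and the median was -0.22. At an unadjusted p under 0.05 in limma 5 passed, Myb higher and the others lower, against 10.0% and 10.6% of all genes. The called gene, Myb, which serves progenitors of several lineages, read 11.69 and 11.64 in leukaemic spleens, against 10.40 and 10.22 in wild type spleens. It rose by 1.36 (SE 0.14, limma adjusted p = 0.012). Spi1, which encodes PU.1, differed by -0.72 (SE 0.19, limma adjusted p = 0.095).

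Marker lists of the other granulocytes had medians close to 0, but these medians rest on dim genes. That of the eosinophil list is the value of Il5ra (mean level 7.78). The basophil and mast cell median lies between Cd200r3 (4.86) and Ms4a2 (6.01). Prg2 (10.47), Ccr3 (10.06), Epx (9.38) and Gata2 (8.17) had higher mean levels. Values under 8.08 are not shown to lie above background, so these medians do not show that other granulocytes were unchanged. Of 5 eosinophil genes 2 were lower and 3 higher, with a median of 0.01 and 0 called (0 at an unadjusted p under 0.05 in limma). Their summed linear level was 2501 and 5471 in leukaemic replicates 1 and 2, against 3145 and 4515 in wild type replicates 1 and 2. Prg2, eosinophil major basic protein, read 9.46 and 11.26 in leukaemic spleens, against 10.21 and 10.95 in wild type spleens. Epx, eosinophil peroxidase, named after its values were seen, read 8.56 and 10.54 in leukaemic spleens, against 8.58 and 9.84 in wild type spleens, and Ccr3, the eotaxin receptor, differed by -0.19 (SE 0.14). Prg2 and Epx thus also were higher in leukaemic replicate 2 than in replicate 1, but the wild type mice differed too. Of 6 basophil and mast cell genes 0 were called (0 at an unadjusted p under 0.05 in limma), with a median of 0.09 and summed linear levels of 752 and 896 in leukaemic spleens, against 814 and 708 in wild type spleens. Gata2 differed by 0.18 (SE 0.16) and Mcpt8, a basophil protease, by -0.07 (SE 0.40).

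Several markers of other leukocytes were lower beside the neutrophil genes. All 12 monocyte and macrophage genes had negative differences, with a median of -0.49 and 0 called. At an unadjusted p under 0.05 in limma 8 were lower, against 10.6% of all genes. The summed linear level of the 12 was 17441 and 17801 in leukaemic spleens, against 27007 and 21910 in wild type spleens. C1qb, a complement subunit made by macrophages, differed by -0.26 (SE 0.19) and Vcam1, on red pulp macrophages, by -0.46 (SE 0.14). Differences of the 12 ranged from -1.21 in Ccr2 to -0.26 in C1qb, and Siglec1 differed by -0.95. Leukaemic replicate 2 was above replicate 1 for 8 of the 12, with a median gap of 0.13. The gap was 1.09 in Ccr2 and 1.14 in F13a1, where leukaemic replicate 1 read 7.65 and 7.99, under 8.08. Ccr2, Siglec1 and F13a1 were named after their values were seen. Of 6 T cell genes 4 fell, with a median of -1.61, against 1.03% of all genes called lower. The CD3 chain genes Cd3g, Cd3e and Cd3d had log2 differences of -1.78, -1.70 and -1.57 (limma adjusted p between 0.038 and 0.049), and T cell genes had a median gap of 0.82 between the leukaemic mice, replicate 2 being higher. T cell summed levels were 2738 and 4017 in leukaemic spleens, against 10710 and 8353 in wild type spleens.

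The 5 erythroid genes had a median difference of -0.54 with 0 called. At an unadjusted p under 0.05 in limma 3 were lower, against 10.6% of all genes. The median gap of the 5 between the leukaemic mice was -0.32, with 1 of 5, Alas2, higher in replicate 2. Slc4a1, the band 3 anion exchanger, differed by -0.36 (SE 0.19) and Alas2, of haem synthesis, by -0.54 (SE 0.18). Summed levels were 14442 and 12853 in leukaemic spleens, against 16113 and 22420 in wild type spleens. Of 6 precursor B cell genes 4 rose, against 1.43% of all genes called higher. The median of the 6 was 3.34, led by Igll1 (5.47), Rag1 (3.57) and Vpreb1 (3.36). Il7r, the interleukin 7 receptor chain, read 11.21 and 12.16 in leukaemic spleens, against 11.01 and 10.71 in wild type spleens (difference 0.83, SE 0.30, limma adjusted p = 0.18). Their summed linear level was 12942 and 14641 in leukaemic spleens, against 2540 and 2153 in wild type spleens. Cell composition and its part in the lower neutrophil values were not tested.

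**Figure D4:**
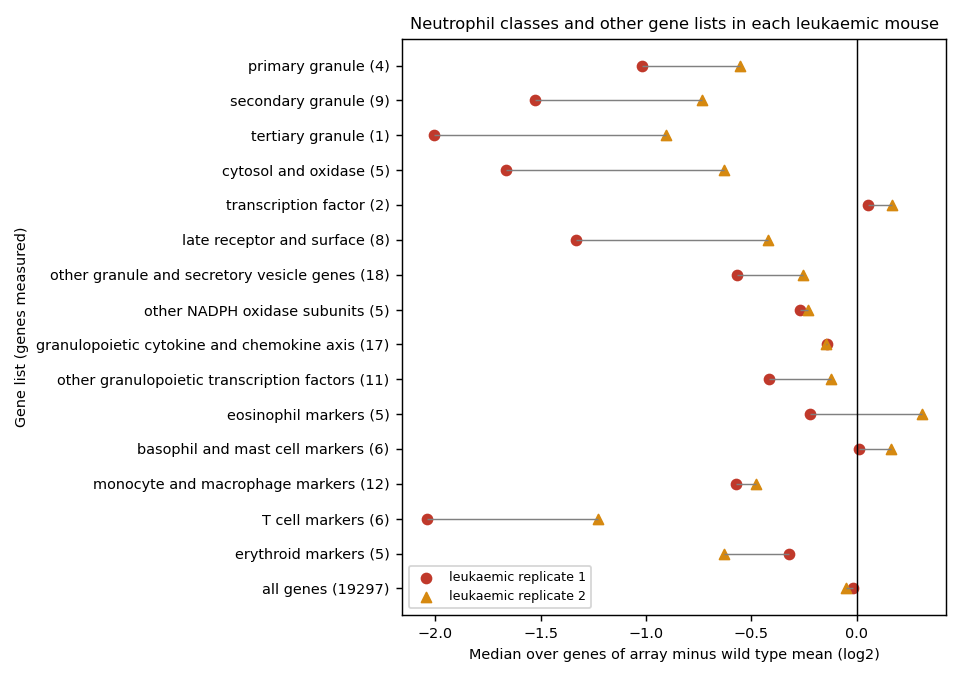
Median over the genes of each list (horizontal axis, log2 difference from the wild type mean) in leukaemic replicate 1 (circles) and leukaemic replicate 2 (triangles), with the number of genes measured in brackets. Granule, cytosolic and receptor classes lie below 0 in both mice and lower in leukaemic replicate 1, as do T cell markers. Eosinophil and basophil markers lie around 0, but their medians rest on genes with mean levels under 8.08.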

How the data were processed

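Total RNA of 4 spleens was hybridised to Affymetrix whole-transcript arrays, per the labels' protocols. The values deposited by the authors are on the log2 scale, with a row for every probe set and a column for every mouse. The submitters' processing notes name RMA, R 2.15.0 and limma 3.12.1, with no settings or order. Of 23309 probe sets, 20729 carried a single gene symbol in the platform table, and the one with the highest 4-array mean stood for each gene. All 29 measured genes of the set had 1 probe set, and their Entrez identifiers matched RefSeq's gene table (GRCm38.p6) without a change of symbol.

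Limma 3.58.1 in R 4.3.3 (lmFit, eBayes, no covariate, no filter on dim genes) compared the groups over 19297 genes, with 2 residual and 4.83 prior degrees of freedom. Standard errors and 95% intervals are those of the moderated fit. An exact permutation test of 2 against 2 mice cannot give a two-sided p under 0.333. On simulated data of the same layout, the fit recovered 0%, 62%, 98% and 100% of genes changed by 0.5, 1, 2 and 3 (log2, 50 genes each of 19297), with 4 unchanged genes called. The simulation gave both groups the same spread. For the neutrophil genes the median gap was 0.75 between leukaemic mice and 0.12 between wild type mice, so these shares need not hold for them. Figures and promoter counts used Python 3.11.15, pandas 2.3.3 and matplotlib 3.10.9.

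The genes of the set and all lists were chosen with earlier results of these data known. Named were all genes of the set. Of each list of other neutrophil genes, called genes and the 2 with the largest difference were named. Of each marker list, up to 3 called genes and the 2 brightest were named. Epx, Ccr2, Siglec1 and F13a1 were added after their values were seen. Replicate numbers of leukaemic and wild type mice, which are individual mice, were not taken as pairs. Alternatives covered scaling, a filter on dim genes, a minimum fold change, other variance priors, which probe sets were used, the replicate number as a block and each mouse left out. The number of arrays limits the precision.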

Additional observations from a re-analysis of the deposited data

How the results depend on the processing

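In all 13 alternatives, 0 of 377 differences of single neutrophil genes changed sign, 308 kept their side of the threshold, 24 lost a call and 45 gained one. The filter on dim genes, the minimum difference, the priors, the choice of probe sets and the block leave these differences as they were. A change of sign was not possible there, nor with a mouse left out where the groups do not overlap, so the sign count says little about robustness. Against 4 neutrophil genes called lower, there were 2 with each array centred on its median (Camp and Csf3r), 0 with quantile normalization, 0 with a minimum log2 difference of 0.5, 1 with all probe sets in the fit (Csf3r), 8 without the dimmest 33.33% of genes, 7 with a robust prior and 6 with an intensity trend in the prior. The last 3 fits called 3.57%, 2.45% and 1.39% of all genes lower, and the fit with the replicate block called 4.71%. With each mouse left out in turn the count ranged from 0 to 23. With the replicate number as a block it was 21, although the numbers are not known to pair the mice (correlation over genes of replicate 2 minus replicate 1 between the groups, r = -0.09). Over all genes, 276 were called higher and 199 lower (58.1% higher), against 157 and 89 with quantile normalization, 495 and 459 without the dimmest genes, 501 and 473 with a robust prior, 48 and 7 with a minimum difference, 785 and 908 with the block, and 0 to 450 and 0 to 593 with a mouse left out. With all probe sets in the fit 217 were higher and 121 lower, and with median centring 343 and 155 (68.9% higher). The median of the 2 transcription factors, 0.11, ranged from 0.025 to 0.19 with a mouse left out. Fits that leave out a mouse keep 1 residual degree of freedom and assume that the lone mouse varies like the other group. Their estimated prior (2.79 degrees of freedom when a wild type mouse is left out, unbounded when a leukaemic one is) differs as well, so counts from them cannot be set directly beside the others. Other causes were not tested.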
